A study of Mus musculus with 15 samples.

Results

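The genes described here are 37 enzymes and enzyme regulators of central carbon metabolism. They are 19 genes of glycolysis, 6 of the pentose phosphate pathway and 12 of pyruvate dehydrogenase and the tricarboxylic acid (TCA) cycle. They were taken from a list of symbols drawn up for these pathways, not by their values, although the list was made with earlier results of these data known. All 37 symbols were found once in each table, among 28347 genes of the steady-state table and 48709 genes of the table from operated mice.

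RNA sequencing of sorted cells from C57BL/6 mice gave 15 libraries in 5 groups of 3. In the steady state, CX3CR1-high CCR2-high macrophages (CCR2-high below) and CX3CR1-low CCR2-low macrophages (CCR2-low below) of visceral adipose tissue stood beside cells labelled blood monocytes, in TPM, a read count scaled to gene length and to the same total in every library. The other libraries held macrophages of visceral adipose tissue labelled as the CCR2-low subset, from mice with myocardial infarction (MI) or with sham surgery, in RPKM, scaled to gene length and library size. No source used here gives age, cell number, gates, genotype or the time after surgery, and nothing says which libraries came from separate animals, so p-values measure the spread between these libraries.

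Glycolysis splits glucose into pyruvate in the cytosol, and lactate dehydrogenase turns pyruvate into lactate when glycolysis outpaces respiration. The pentose phosphate pathway branches off after the hexokinase step to make NADPH and ribose, which phagocytes use for the oxidative burst, for biosynthesis and for nucleotides. Pyruvate dehydrogenase feeds the TCA cycle in the mitochondrion, and macrophages are known to shift between these routes with activation and tissue setting.

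Whole reads, worked back from the values, came to 32576277 to 48048390 per steady-state library and 51391249 to 67929029 per library of operated mice, and the lowest read numbers of a member in any library were 34 for Aldoc in a labelled monocyte library and 60 for Rpia in an MI library. All 6 defining macrophage markers were at 1 or more in every library of fat macrophages, and 4 of them in every labelled monocyte library. They summed to 28489 to 30395 TPM in CCR2-high and 26870 to 39079 TPM in CCR2-low. In MI they summed to 19664 to 44405 RPKM and in sham libraries to 37713 to 43579 RPKM. Most of each sum was Lyz2, at 24622 to 27155 TPM in CCR2-high and 22864 to 35462 TPM in CCR2-low. Its values were 17600 to 42358 RPKM in MI and 35144 to 41279 RPKM in sham libraries. The libraries labelled monocytes held markers of monocytes and of their precursors together. A list of 6 classical monocyte markers, led by Ly6c2, summed to 7261 to 8493 TPM in the labelled monocytes. It summed to 579 to 590 TPM in CCR2-high and 103 to 141 TPM in CCR2-low. Ccr2 of this list went the other way, at 54.8 to 65.8 TPM in the labelled monocytes. It was at 436 to 471 TPM in CCR2-high and 66.3 to 83.2 TPM in CCR2-low. In the test described below, 2 of the 6 genes were higher and 3 lower in CCR2-high than in the labelled monocytes. In CCR2-low 1 was higher and 5 were lower. The macrophage marker Adgre1 was at 590 to 746 TPM in the steady-state macrophages and 6.64 to 9.44 TPM in the labelled monocytes. A list of 10 granule and precursor genes, led by Mpo, summed to 3.92 to 19.2 TPM in the macrophages, with Ms4a3 at 0, and to 26035 to 31571 TPM in the labelled monocytes. A list of 10 cell-cycle genes summed to 280 to 387 TPM in CCR2-high and 162 to 177 TPM in CCR2-low, against 2019 to 2332 TPM in the labelled monocytes. Xist, which is made from the inactive X chromosome of females, was at 0 in the steady-state macrophages and at 15.4 to 22.3 TPM in the labelled monocytes. The Y-linked Ddx3y was at 43.6 to 61.1 TPM in the macrophages and at most 0.0127 TPM in the labelled monocytes, so the mice also differed in sex. They are called labelled monocytes throughout. Cx3cr1 was at 5.11 to 18.9 RPKM in MI and 18.1 to 25.6 RPKM in sham libraries, against 1.59 to 2.55 TPM in steady-state CCR2-low libraries, and the tables are not compared further.

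The pathway sums add 19 glycolysis, 6 pentose phosphate and 12 TCA group genes. Their size relative to each other thus depends on the length of the lists, and only the groups are compared. Glycolysis members summed to 2176, 1735 and 1794 TPM in CCR2-high libraries, 1581, 1988 and 1602 TPM in CCR2-low libraries and 6539, 5404 and 5820 TPM in labelled monocytes. The CCR2-high and CCR2-low sums overlapped, and the labelled monocytes lay above both. Pentose phosphate members summed to 422, 356 and 353 TPM in CCR2-high, 309, 332 and 295 TPM in CCR2-low and 1033, 897 and 955 TPM in labelled monocytes, with no overlap between the 3 groups. The TCA group summed to 980, 917 and 857 TPM in CCR2-high, 959, 1007 and 982 TPM in CCR2-low and 2237, 1812 and 1898 TPM in labelled monocytes. Relative to the TCA sum, pentose phosphate transcript was 0.41 ± 0.0217 in CCR2-high, 0.317 ± 0.015 in CCR2-low and 0.487 ± 0.022 in labelled monocytes (SD, n = 3 each). Glycolysis over TCA was 2.07 ± 0.166, 1.75 ± 0.194 and 2.99 ± 0.0724 in the same order, and overlapped between the macrophage subsets. The members together made up 0.32% ± 0.0331 of all TPM in CCR2-high, 0.302% ± 0.0267 in CCR2-low and 0.886% ± 0.0864 in labelled monocytes.

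**Figure D1:**
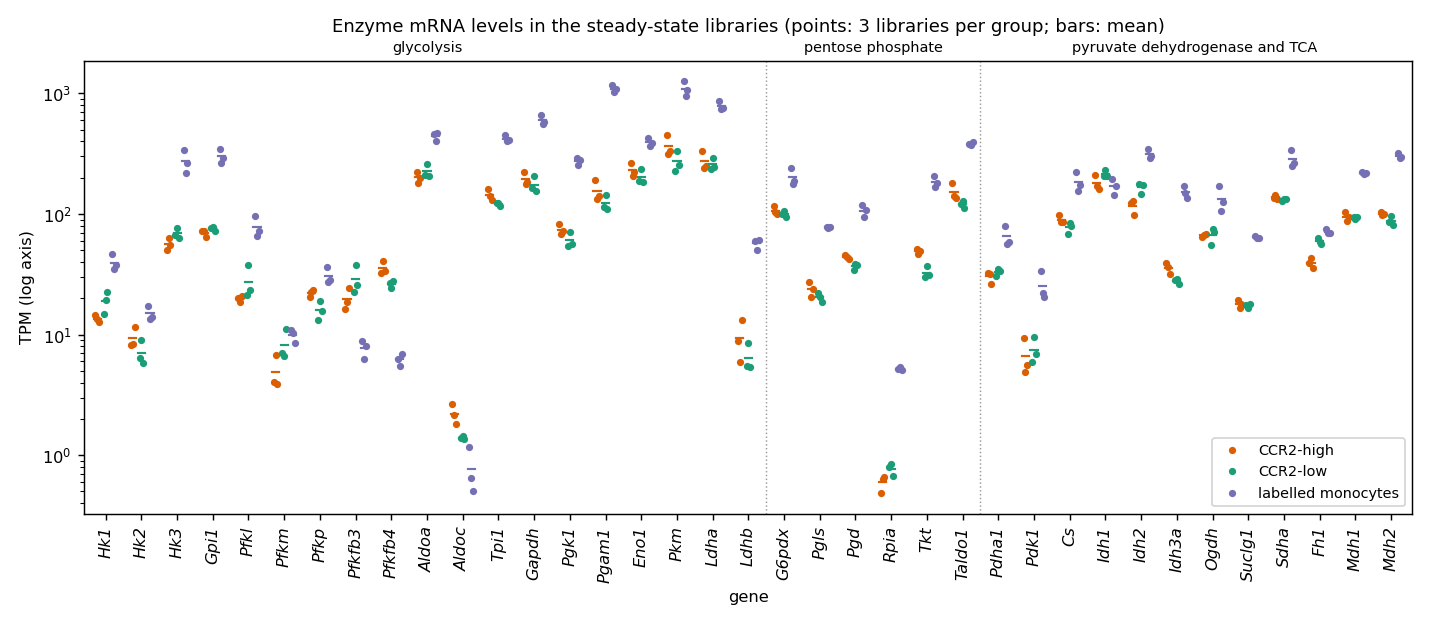
TPM on a log axis for each member in the 9 steady-state libraries, grouped by pathway; points are libraries and bars are means of 3. Labelled monocytes lie above both macrophage subsets for most members, with Pfkfb3, Pfkfb4 and Aldoc the other way round. For Idh1 they lie below CCR2-low and overlap CCR2-high.

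Levels per gene length spanned a wide range within each pathway. In CCR2-high macrophages the member with the highest value was Pkm, the pyruvate kinase of glycolysis' last step, at 365 ± 75.8 TPM. Ldha, the main lactate dehydrogenase subunit of these cells, came next at 274 ± 49.1 TPM. This order leaves out the copies described below, and copies of Eno1 and Gapdh held more TPM than the genes themselves. CCR2-low macrophages had 273 ± 54.5 TPM of Pkm and 259 ± 30.7 TPM of Ldha. Rpia, which makes ribose 5-phosphate, was the lowest at 0.594 ± 0.0955 TPM in CCR2-high and 0.771 ± 0.0842 TPM in CCR2-low (n = 3 each). The levels of 6 glycolysis members are uncertain, because near-identical processed copies elsewhere in the genome carried values in a nearly fixed ratio to them in the steady-state table. Copies held 397, 395 and 391% of the Eno1 level in CCR2-high, CCR2-low and labelled monocyte libraries, 205, 205 and 204% of that of Pgk1, 141, 144 and 137% of that of Gapdh, 110, 109 and 108% of that of Pgam1, 40.2, 38.4 and 38.7% of that of Gpi1, and 65.2, 75 and 68.5% of that of Ldhb. In the RPKM table the copies of these genes reached at most 1.18% of the member. Differences between groups in the steady-state table touch member and copies alike, so such a difference cannot be assigned to one of them. The steady-state glycolysis sums, their ratios to TCA and the shares of all TPM given above count the members without the copies. In CCR2-high the copies of Eno1, Gapdh, Pgam1 and Pgk1 held 920, 272, 169 and 152 TPM, so these sums, ratios and shares are uncertain too.

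The first comparison sets the subsets of 1 tissue, CCR2-high and CCR2-low, against each other. Of the 37 members, 2 were called higher in CCR2-high and 2 lower: Tkt and Pfkfb4 rose, at 1.49 and 1.33 times CCR2-low, and Fh1 and Idh2 fell, at 0.67 and 0.70 times CCR2-low. Called means an adjusted p below 0.05 from limma on log2(TPM + 1), adjusted over 15467 genes. Among all of these genes 17.7% were called, 8.93% higher and 8.74% lower, so the members' 4 of 37 was a smaller share than the background. The median log2 fold change was 0.09 over the members and -0.01 over all genes. After median-ratio scaling 3 members were higher, against 7.91% of all genes, and 4 lower, against 11.9%. Idh3a, Hk1 and Pfkm were the members added by scaling, and none of the 4 was lost. In bulk libraries such as these, fewer cells of a type and less RNA per cell cannot be told apart.

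Tkt (ENSMUSG00000021957, mm10 chromosome 14, 30548359 to 30574720) encodes transketolase, which links the pentose phosphate pathway back to glycolysis. It had 51.2, 46.9 and 48.9 TPM in CCR2-high libraries and 29.8, 37.2 and 30.9 TPM in CCR2-low libraries. All CCR2-high libraries were above all CCR2-low libraries, with a log2 fold change of 0.58 (SE 0.11, adjusted p = 0.00626). Pfkfb4 (ENSMUSG00000025648, chromosome 9, 108991778 to 109032228), which sets the level of the phosphofructokinase activator fructose 2,6-bisphosphate, had 32.2, 40.4 and 33.4 TPM in CCR2-high and 27, 24.2 and 27.6 TPM in CCR2-low libraries. Its groups did not overlap either, but its log2 fold change of 0.41 (SE 0.13, adjusted p = 0.0462) was not called without any 1 of the 6 macrophage libraries, with adjusted p from 0.0711 to 0.148.

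Fh1 (ENSMUSG00000026526, chromosome 1, 175600374 to 175625635) encodes fumarase, the enzyme that turns fumarate into malate. It had 39.5, 43.4 and 35.9 TPM in CCR2-high and 63.3, 58.6 and 56.3 TPM in CCR2-low libraries. The log2 fold change was -0.58 (SE 0.10, adjusted p = 0.00308), and the groups lay apart. Idh2 (ENSMUSG00000030541, chromosome 7, 80094846 to 80115392), the mitochondrial isocitrate dehydrogenase that makes NADPH, had 123, 129 and 97.5 TPM in CCR2-high and 178, 146 and 175 TPM in CCR2-low libraries. Its log2 fold change was -0.52 (SE 0.13, adjusted p = 0.0182), and it was not called without CCR2-high replicate 3, CCR2-low replicate 1 or CCR2-low replicate 3, with adjusted p of 0.0672, 0.0712 and 0.0679. In the authors' deposited table, whose test no source used here names, the CCR2+ minus CCR2- log2 values were 0.65 for Tkt, 0.40 for Pfkfb4, -0.56 for Fh1 and -0.49 for Idh2, and their adjusted p was 1 for each. No member (0 of 37) had an adjusted p below 0.05 for this comparison in the authors' deposited table.

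Sequences from before the RefSeq start of these 4 genes and of Pgam1, the glycolysis member furthest below its level in labelled monocytes, are printed because these genes carry the differences described. They are RefSeq sequences of build GRCm38, 5′ to 3′, from the 250 bases before the RefSeq start, without bases that GENCODE M21 annotates as exon of the gene. The Tkt stretch lies inside the gene as GENCODE M21 gives it, since its RefSeq start is further downstream. Capitals mark the core of the hypoxia response element, searched as ACGTG and GCGTG on both strands.
Tkt, chr14:30548881-30549001, plus strand: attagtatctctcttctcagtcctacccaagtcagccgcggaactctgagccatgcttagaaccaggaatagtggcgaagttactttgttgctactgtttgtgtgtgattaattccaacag
Pfkfb4, chr9:108991652-108991777, plus strand: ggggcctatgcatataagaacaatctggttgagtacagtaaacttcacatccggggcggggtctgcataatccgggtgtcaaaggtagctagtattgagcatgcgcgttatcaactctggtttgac
Fh1, chr1:175625636-175625885, minus strand: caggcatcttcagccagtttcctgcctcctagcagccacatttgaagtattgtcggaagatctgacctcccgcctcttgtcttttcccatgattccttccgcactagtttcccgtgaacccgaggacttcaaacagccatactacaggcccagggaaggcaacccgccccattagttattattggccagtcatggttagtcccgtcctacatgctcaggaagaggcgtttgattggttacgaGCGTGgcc
Idh2, chr7:80115393-80115600, minus strand: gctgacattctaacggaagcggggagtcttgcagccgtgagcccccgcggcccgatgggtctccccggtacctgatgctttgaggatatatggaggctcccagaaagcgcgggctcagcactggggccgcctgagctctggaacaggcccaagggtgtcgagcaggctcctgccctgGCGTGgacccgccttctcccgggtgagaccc
Pgam1, chr19:41911621-41911870, plus strand: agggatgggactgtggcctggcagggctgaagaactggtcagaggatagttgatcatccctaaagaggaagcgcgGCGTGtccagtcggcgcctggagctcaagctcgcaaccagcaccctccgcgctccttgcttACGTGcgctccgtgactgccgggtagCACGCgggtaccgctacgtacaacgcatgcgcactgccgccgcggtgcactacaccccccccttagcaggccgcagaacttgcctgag
The core was in the full 250-base window of 29 of the 36 members with a RefSeq sequence (80.6%), against 38.6% of all 32851 windows in the table. GGGCGG, the GC box, was in 24 members (66.7%), against 32.7% of windows. CCAAT was in 15 members (41.7%), against 33.8% of windows, and the E-box CACGTG, which holds the core ACGTG, was in 2 members (5.56%), against 6.02% of windows. In the printed stretches the core was found 3 times for Pgam1, 1 time each for Fh1 and Idh2, and 0 times for Tkt and Pfkfb4. Over the full 250-base windows it was found 3 times for Pgam1 and 1 time each for Tkt, Pfkfb4, Fh1 and Idh2. These are matches of letters and not measured binding sites. The windows set beside the members were not matched to them for base composition or expression.

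**Figure D2:**
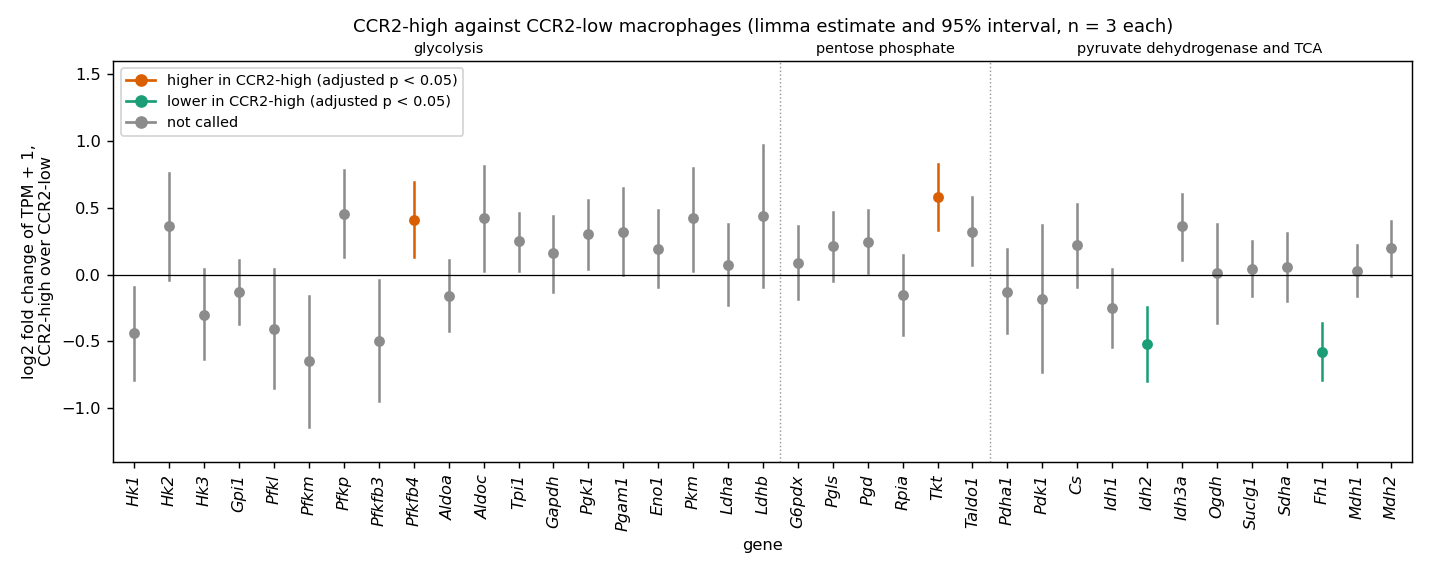
Log2 fold change of TPM + 1, CCR2-high over CCR2-low, for each member, with limma's 95% interval (n = 3 each). Orange marks Tkt and Pfkfb4, green marks Fh1 and Idh2, and grey marks members that were not called.

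The libraries of the subsets did not overlap for 16 of the 37 members (43.2%), 10 higher and 6 lower, against 37.7% of all genes tested, 19.7% higher and 18% lower. Besides the genes above, Pfkp, Aldoc, Tpi1, Pgd, Taldo1, Cs, Idh3a and Mdh2 were higher in every CCR2-high library, and Hk1, Hk3, Pfkl and Rpia lower, without passing the test. In the pentose phosphate pathway 3 of 6 members lay above without overlap. Taldo1, the transaldolase that works beside transketolase, had 182, 140 and 137 TPM in CCR2-high and 121, 129 and 113 TPM in CCR2-low libraries (log2 fold change 0.32, adjusted p = 0.0794). Pgd, which makes NADPH in the oxidative branch, had 45.4, 43.8 and 42.4 TPM in CCR2-high and 34.3, 38.7 and 37.7 TPM in CCR2-low libraries (log2 fold change 0.24, adjusted p = 0.142). G6pdx, the entry enzyme of that branch, overlapped, with 116, 104 and 99.4 TPM in CCR2-high and 99.8, 105 and 94 TPM in CCR2-low libraries. In the TCA group Idh3a, the catalytic subunit of the NAD-dependent isocitrate dehydrogenase, had 39.3, 36.4 and 31.8 TPM in CCR2-high and 28.1, 28.8 and 26.2 TPM in CCR2-low libraries (log2 fold change 0.36, adjusted p = 0.0529). It lay on the other side of Idh2, and the remaining TCA members had log2 fold changes from -0.25 for Idh1 to 0.22 for Cs. Among the abundant enzymes of glycolysis, Ldha had 331, 243 and 248 TPM in CCR2-high and 235, 294 and 247 TPM in CCR2-low libraries, a log2 fold change of 0.07 with a 95% interval from -0.23 to 0.38. Gapdh, the dehydrogenase of the middle step, had 221, 177 and 183 TPM in CCR2-high and 163, 205 and 154 TPM in CCR2-low libraries, and Aldoa, the main aldolase, had 224, 182 and 200 TPM in CCR2-high and 210, 262 and 205 TPM in CCR2-low libraries. CCR2-low replicate 2 was the highest CCR2-low library for Ldha, Gapdh, Aldoa, Eno1, Pgk1, Pgam1 and Pkm, and without it Tkt was joined by Pfkp, Pgk1 and Pkm among members called higher, with adjusted p of 0.0304, 0.0368 and 0.0474. Sdha, the flavoprotein subunit of succinate dehydrogenase, overlapped, with 136, 143 and 133 TPM in CCR2-high and 128, 134 and 134 TPM in CCR2-low libraries (95% interval of the log2 fold change -0.20 to 0.31).

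The make-up of isozyme families also differed between the groups. Within phosphofructokinase, the committed step of glycolysis, Pfkp made up 45.7 to 48.6% of the family's summed TPM in CCR2-high, 29.9 to 32.1% in CCR2-low and 25.1 to 26.2% in labelled monocytes. Pfkl made up 38.7 to 45.2% in CCR2-high, 46.3 to 59.6% in CCR2-low and 63.8 to 67.3% in labelled monocytes. None of the 3 groups overlapped another for either isozyme. Pfkp itself had 20.3, 22.5 and 23.4 TPM in CCR2-high and 13.3, 18.9 and 15.8 TPM in CCR2-low libraries (log2 fold change 0.45, adjusted p = 0.0589), while Pfkl had 20.1, 18.5 and 20.8 TPM in CCR2-high and 21.2, 37.7 and 23.3 TPM in CCR2-low libraries (log2 fold change -0.41, adjusted p = 0.206). Of the PFKFB pair, Pfkfb4 made up 57.7 to 68.3% in CCR2-high, 39 to 54.5% in CCR2-low and 41.5 to 46.5% in labelled monocytes. Pfkfb3, the other member of the pair, had 16.4, 18.8 and 24.5 TPM in CCR2-high and 22.5, 37.9 and 26 TPM in CCR2-low libraries, which overlapped. With 3 against 3 libraries the smallest exact permutation p, two-sided, is 0.1, which cannot pass 0.05, so the shares are given with their ranges and no test.

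Hexokinase, which commits glucose to the cell, was mostly Hk3 in every group, at 71 ± 3% in CCR2-high, 72.7 ± 3.39% in CCR2-low and 83.2 ± 1.11% in labelled monocytes (SD, n = 3 each). Hk2 made up 9.78 to 14.5% in CCR2-high, 6.34 to 8.62% in CCR2-low and 4.34 to 5.05% in labelled monocytes, without overlap. Aldolase was almost wholly Aldoa, with Aldoc at 1.08 ± 0.151% in CCR2-high, 0.618 ± 0.0651% in CCR2-low and 0.174 ± 0.0726% in labelled monocytes. Ldhb, the subunit that favours lactate use, was 3.35 ± 1.49% of lactate dehydrogenase transcript in CCR2-high, 2.4 ± 0.357% in CCR2-low and 6.79 ± 0.62% in labelled monocytes, and the macrophage subsets overlapped. Of the NADP-dependent isocitrate dehydrogenases the mitochondrial Idh2 made up 39.1 ± 3.13% in CCR2-high, 43.7 ± 4.42% in CCR2-low and 65 ± 1.77% in labelled monocytes. The cytosolic Mdh1 was 48.6 ± 1.38% of malate dehydrogenase transcript in CCR2-high, 51.6 ± 2.88% in CCR2-low and 41.9 ± 0.725% in labelled monocytes. For both of these families the labelled monocytes lay apart from the macrophages, and the macrophage subsets overlapped.

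**Figure D3:**
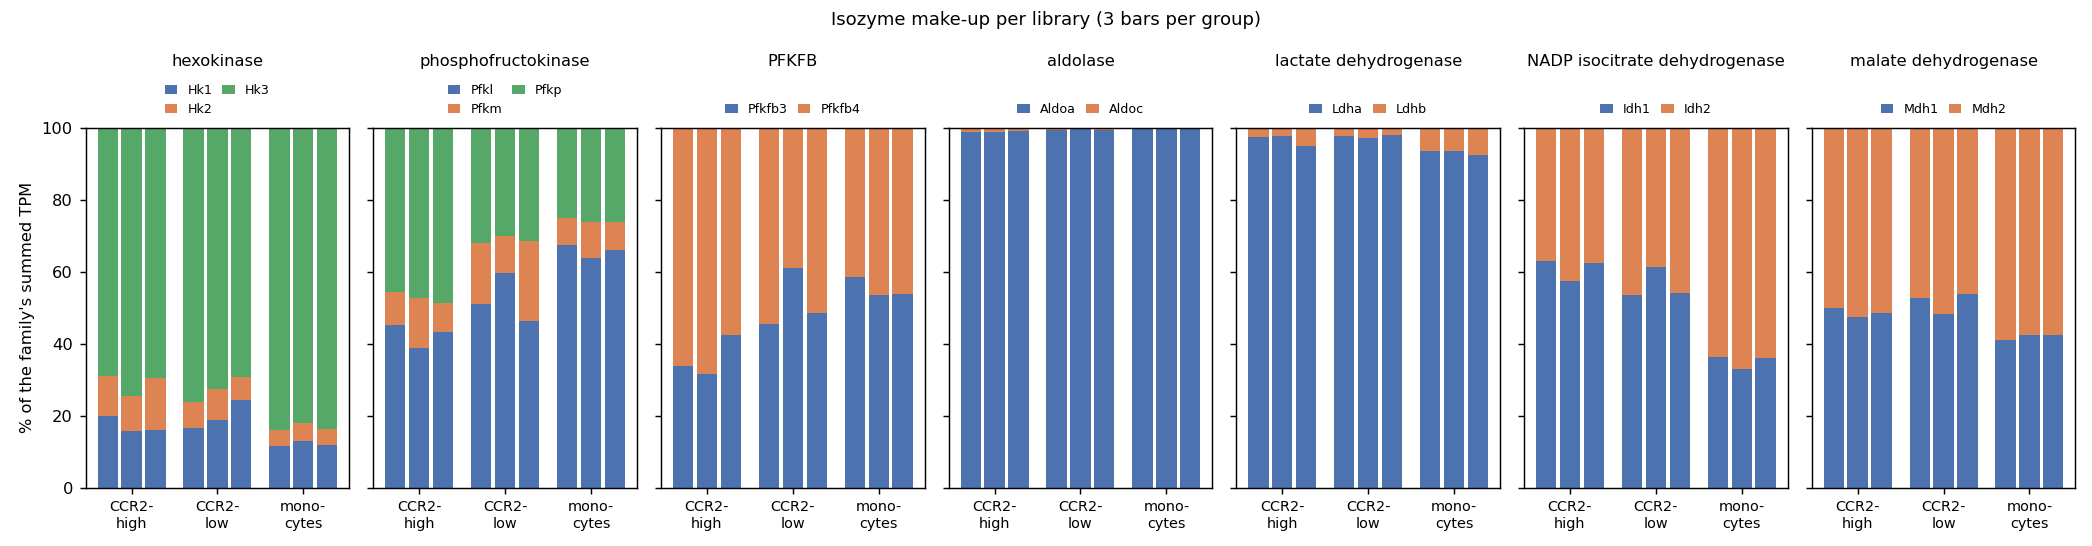
Share of each isozyme in the summed TPM of its family, per library, with 3 bars per group and families side by side. The green Pfkp part of phosphofructokinase is 45.7 to 48.6% in CCR2-high, above CCR2-low and labelled monocytes.

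Further genes of these pathways were counted beside the 17.7% of all genes called between the subsets. The further glycolysis genes include Eno1b, which is also among the near-identical copies of Eno1 described above. None of 15 further glycolysis genes (0 of 15), 0 of 7 further pentose phosphate genes and 1 of 13 further TCA genes was called, the last being Sdhb, a succinate dehydrogenase subunit (log2 fold change 0.32, adjusted p = 0.0436), a call lost after median-ratio scaling. Of 10 transporter genes 2 were called. Slc2a1, which encodes the glucose transporter GLUT1, was higher at 19.9 ± 5.31 TPM in CCR2-high, against 7.54 ± 4.16 TPM in CCR2-low (n = 3 each, log2 fold change 1.37, SE 0.31, adjusted p = 0.0122). Bsg, the chaperone of the lactate carriers, was lower at 193 ± 6.95 TPM in CCR2-high, against 266 ± 19.1 TPM in CCR2-low (log2 fold change -0.46, adjusted p = 0.00529). Among 10 pyruvate dehydrogenase genes Pdk4, a kinase that shuts the complex off, was the 1 called, at 1.7 ± 1.6 TPM in CCR2-high and 11.6 ± 6.27 TPM in CCR2-low (log2 fold change -2.24, adjusted p = 0.00474). The member kinase Pdk1 overlapped, with 9.31, 4.9 and 5.6 TPM in CCR2-high and 5.96, 9.54 and 6.92 TPM in CCR2-low libraries. Of 12 genes that feed or drain the cycle 1 was called, Got1, the cytosolic aspartate transaminase, which was higher (log2 fold change 0.63, adjusted p = 0.011). Of 10 regulators 3 were called: Epas1, Mlxipl and Egln3 were lower, with log2 fold changes of -1.33, -1.41 and -0.93.

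Markers of other cells moved with this comparison. Of the tested markers 8 of 9 fibroblast, 9 of 10 endothelial, 4 of 6 mesothelial and 6 of 6 adipocyte genes were lower in CCR2-high, the adipocyte list summing to 295 to 475 TPM in CCR2-high and 742 to 832 TPM in CCR2-low libraries. The fibroblast list summed to 25.8 to 62.5 TPM in CCR2-high and 112 to 195 TPM in CCR2-low. The endothelial list summed to 33.9 to 58.4 TPM in CCR2-high and 138 to 140 TPM in CCR2-low, and the mesothelial list to 72.6 to 195 TPM in CCR2-high and 441 to 1291 TPM in CCR2-low, and none of these markers was at 0 in all libraries of a subset. Of 10 cell-cycle genes 9 were higher in CCR2-high, and of 9 mitochondrially encoded genes 8 were lower, with sums of 29211 to 35798 TPM in CCR2-high and 43051 to 53897 TPM in CCR2-low. The part of these in the differences of Tkt, Pfkfb4, Fh1, Idh2 and Pdk4 was not tested.

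Against the labelled monocytes, nearly every enzyme transcript was lower in macrophages of either subset, and the regulators Pfkfb3 and Pfkfb4 were higher. In CCR2-high 33 members were called lower and 3 higher, and in CCR2-low 32 lower and 4 higher. Of all 15467 genes 77.8% were called in CCR2-high against labelled monocytes (51.3% lower, 26.5% higher) and 79% in CCR2-low against labelled monocytes (50.6% lower, 28.4% higher). The median log2 fold change was -1.43 over members and -0.42 over all genes in CCR2-high, and -1.51 and -0.40 in CCR2-low. Libraries did not overlap for 36 of the 37 members in either subset, 33 lower and 3 higher in CCR2-high, against 80% of all genes (52.7% lower, 27.3% higher), and 32 lower and 4 higher in CCR2-low, against 80.2% (51.5% lower, 28.6% higher). Both comparisons use the same 3 monocyte libraries, so their values stand side by side and are not independent. Rpia reached 1 TPM only in the labelled monocytes and passed the filter through them, so it had to differ. Without it 32 members were lower in CCR2-high and 31 in CCR2-low. Aldoc, at 0.508 to 1.16 TPM in labelled monocytes, passed the filter through the macrophages, where it was at 1.36 to 2.64 TPM. Its calls as higher thus rest on a filter passed where it is high.

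The scale set part of these values. After scaling by the median ratio of genes at 10 TPM or more in every library, the median of all genes was 0.03 in CCR2-high and 0.10 in CCR2-low against labelled monocytes. The share of called genes that were higher then became 51.5% in CCR2-high, against 34.1% as deposited, and 54.1% in CCR2-low, against 36% as deposited. On the scaled values 29 members were lower and 4 higher in CCR2-high, against 35.9% and 38.1% of all genes, and 31 lower and 5 higher in CCR2-low, against 35.5% and 41.8%. The members' medians were then -0.90 in CCR2-high and -0.94 in CCR2-low. In CCR2-high, Hk2, Pfkm and Eno1 were no longer called, Pfkp turned to 0.06 (adjusted p = 0.661), and Idh1 was called higher at 0.63. In CCR2-low, Fh1 changed sign from lower to higher, at 0.31 (adjusted p = 0.00848), against -0.26 (adjusted p = 0.031) as deposited.

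**Figure D4:**
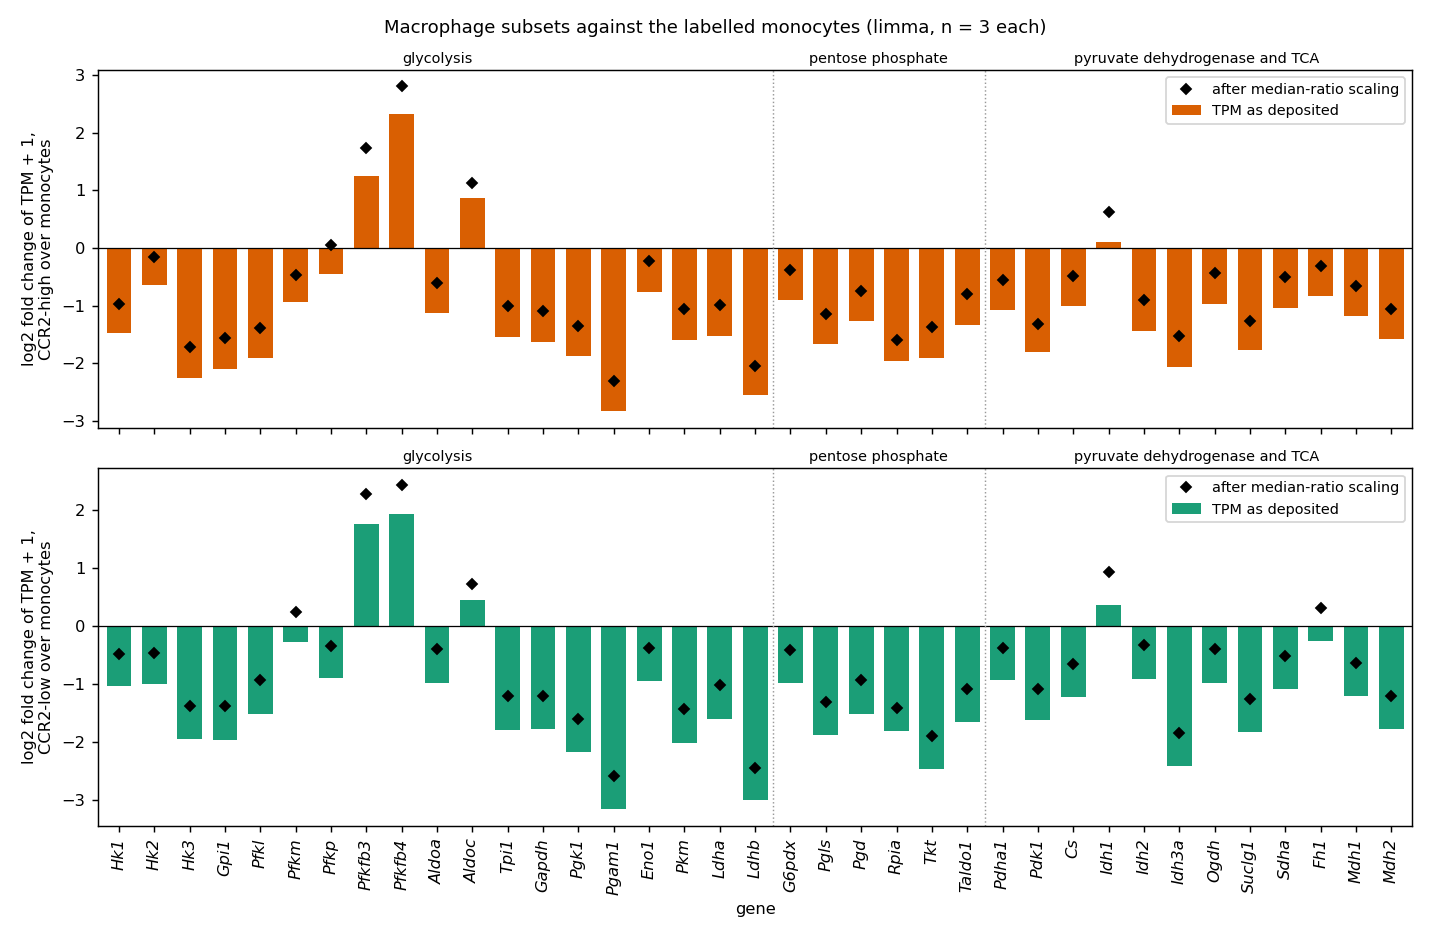
Log2 fold change of TPM + 1 for each member, CCR2-high over labelled monocytes above and CCR2-low over labelled monocytes below; bars use TPM as deposited and diamonds values after median-ratio scaling. Pgam1 and Ldhb reach furthest down, and Pfkfb3, Pfkfb4, Aldoc and Idh1 stay above 0 on both scales.

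In glycolysis, Pgam1 (ENSMUSG00000011752, chromosome 19, 41911923 to 41918660), the phosphoglycerate mutase, showed the deepest difference. It had 190, 132 and 142 TPM in CCR2-high and 114, 144 and 110 TPM in CCR2-low libraries, against 1165, 1032 and 1083 TPM in labelled monocytes. Its log2 fold changes were -2.83 (SE 0.15, adjusted p = 2.02e-08) in CCR2-high and -3.16 (SE 0.15, adjusted p = 6.96e-09) in CCR2-low. Ldhb followed, at 8.82, 5.95 and 13.2 TPM in CCR2-high and 5.48, 8.45 and 5.34 TPM in CCR2-low, against 59.7, 50.6 and 60.8 TPM in labelled monocytes, with log2 fold changes of -2.55 and -2.99. Both genes have copies that carry reads, as described above. Hk3, for which no such copy was found, had 50, 63 and 55.3 TPM in CCR2-high and 67.6, 75.9 and 63.7 TPM in CCR2-low, against 337, 220 and 265 TPM in labelled monocytes (log2 fold changes -2.25 and -1.95). Pkm had 452, 312 and 332 TPM in CCR2-high and 229, 334 and 255 TPM in CCR2-low, against 1260, 955 and 1062 TPM in labelled monocytes (log2 fold changes -1.59 and -2.01). Every library of labelled monocytes lay above every macrophage library for these 4 genes. The smallest falls among glycolysis members of CCR2-high were those of Pfkp, at -0.45, and Hk2, at -0.64; Pfkp was not called without CCR2-high replicate 1 or labelled monocytes replicate 1 (adjusted p = 0.0578 and 0.0558). Pfkm was the glycolysis member not called in CCR2-low, at 6.99, 6.59 and 11.2 TPM, against 11, 10.4 and 8.59 TPM in labelled monocytes.

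Pfkfb4 and Pfkfb3, the kinases and phosphatases that make and remove fructose 2,6-bisphosphate, went the other way. Pfkfb4 had 6.32, 5.46 and 6.89 TPM in labelled monocytes, below every macrophage library, with log2 fold changes of 2.33 in CCR2-high (SE 0.13, adjusted p = 2.77e-08) and 1.92 in CCR2-low (SE 0.13, adjusted p = 9.94e-08). Pfkfb3 had 8.9, 6.28 and 8 TPM in labelled monocytes, with log2 fold changes of 1.25 in CCR2-high (adjusted p = 1.86e-04) and 1.75 in CCR2-low (adjusted p = 1.22e-05). Aldoc, the minor aldolase, was at 2.64, 2.17 and 1.83 TPM in CCR2-high and 1.38, 1.43 and 1.36 TPM in CCR2-low, against 1.16, 0.651 and 0.508 TPM in labelled monocytes. Its log2 fold change was 0.87 in CCR2-high (adjusted p = 8.26e-04), and its 0.45 in CCR2-low (adjusted p = 0.0349) was not called without any 1 of the CCR2-low libraries or without labelled monocytes replicate 2 or 3, with adjusted p from 0.0639 to 0.161. In the authors' deposited table, where the difference runs from macrophages to monocytes, Pfkfb4 had a Monocyte minus CCR2+ value of -2.95 (adjusted p = 1.01e-49) and Pgam1 one of 2.35 (adjusted p = 1.77e-27). That table gave 19 members above 0 and 3 below 0 at an adjusted p under 0.05 for Monocyte minus CCR2+, and 19 and 2 for Monocyte minus CCR2-.

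All 5 pentose phosphate members apart from Rpia were lower in both subsets. Tkt had 207, 168 and 182 TPM in labelled monocytes, above all macrophage libraries, and fell by 1.90 in CCR2-high (adjusted p = 5.94e-08) and by 2.47 in CCR2-low (adjusted p = 6.24e-09) on the log2 scale. G6pdx, at 240, 176 and 188 TPM in labelled monocytes, fell least, by 0.90 in CCR2-high (adjusted p = 4.03e-05) and by 0.99 in CCR2-low (adjusted p = 1.72e-05). Rpia had 0.485, 0.638 and 0.66 TPM in CCR2-high and 0.798, 0.838 and 0.676 TPM in CCR2-low, against 5.22, 5.34 and 5.08 TPM in labelled monocytes. The mice of the labelled monocytes were of the other sex, and Pgk1, G6pdx and Pdha1 are on the X chromosome, so for these 3 genes sex and cell type cannot be told apart. The same holds in these libraries for every member, since each labelled monocyte library differed from each macrophage library in both.

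In the TCA group 11 of 12 members were called lower in CCR2-high and 11 of 12 in CCR2-low. Idh3a was furthest down, at 171, 149 and 137 TPM in labelled monocytes against the macrophage values above, with log2 fold changes of -2.06 in CCR2-high and -2.41 in CCR2-low. Suclg1, a subunit of succinyl-CoA ligase, had 19.2, 16.7 and 18.1 TPM in CCR2-high and 17.6, 16.7 and 18 TPM in CCR2-low, against 65.7, 62.8 and 63.2 TPM in labelled monocytes (log2 fold changes -1.77 and -1.82). Cs, the citrate synthase that opens the cycle, fell by 1.01 in CCR2-high and by 1.23 in CCR2-low on the log2 scale. The cytosolic Idh1 stood apart from the group. It had 209, 172 and 162 TPM in CCR2-high and 205, 232 and 206 TPM in CCR2-low, against 195, 143 and 170 TPM in labelled monocytes. It was not called in CCR2-high (log2 fold change 0.10, 95% interval -0.19 to 0.39) and was higher in CCR2-low (0.35, adjusted p = 0.0312), a call lost without CCR2-low replicate 2 or without labelled monocytes replicate 2 or 3 (adjusted p from 0.062 to 0.132). Fh1 had 74.4, 70.1 and 69.3 TPM in labelled monocytes, nearer to CCR2-low than to CCR2-high, with log2 fold changes of -0.83 in CCR2-high and -0.26 in CCR2-low. The call in CCR2-low was lost without CCR2-low replicate 2 or 3 or any 1 labelled monocyte library (adjusted p from 0.0557 to 0.107), and on scaled values it turned positive, as given above.

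The wider lists were counted on TPM as deposited, where 51.3% of all genes were lower and 26.5% higher in CCR2-high, and 50.6% lower and 28.4% higher in CCR2-low. Of 15 further glycolysis genes, among them the Eno1 copy Eno1b, 9 were lower and 2 higher in CCR2-high. In CCR2-low 9 were lower and 1 higher, and both are near those shares. After median-ratio scaling 6 of these genes were lower in CCR2-high, against 35.9% of all genes, and 7 in CCR2-low, against 35.5%. Of 7 further pentose phosphate genes 6 were lower in CCR2-high and 5 in CCR2-low, and of 13 further TCA genes 11 were lower in CCR2-high and 12 in CCR2-low, with 1 higher in each. After scaling 5 pentose phosphate genes were lower in each subset, and 7 TCA genes in CCR2-high and 6 in CCR2-low. Of 10 further pyruvate dehydrogenase genes 6 were lower and 2 higher in each subset. After scaling 5 were lower in each, with 4 higher in CCR2-high and 3 in CCR2-low. The 12 genes that feed or drain the cycle were mixed, 6 lower and 4 higher in CCR2-high, and 5 lower and 3 higher in CCR2-low. On scaled values 5 of them were lower and 6 higher in CCR2-high, and 3 lower and 7 higher in CCR2-low. Tigar, a fructose 2,6-bisphosphatase that opposes Pfkfb3 in its effect, was lower at 1.56 ± 0.334 TPM in CCR2-high and 1.72 ± 0.291 TPM in CCR2-low, against 10.3 ± 1.53 TPM in labelled monocytes. The transporters were mixed, with 3 higher and 4 lower of 10 in each subset. Slc16a1, which encodes the lactate carrier MCT1, had a log2 fold change of -2.12 in CCR2-high and -2.37 in CCR2-low, and Slc2a8, an intracellular glucose transporter, 1.15 in CCR2-high and 1.30 in CCR2-low. Of 10 regulators 4 were higher and 4 lower in CCR2-high, and 4 higher and 3 lower in CCR2-low. After scaling 5 were higher and 2 lower in CCR2-high, and 7 higher and 3 lower in CCR2-low. Their part in the member values was not tested. The regulator Myc was at 29.9 ± 4.91 TPM in CCR2-high and 26.3 ± 2.07 TPM in CCR2-low, against 227 ± 15 TPM in labelled monocytes. Its log2 fold changes were -2.90 and -3.06. Epas1 went the other way, with log2 fold changes of 1.59 in CCR2-high and 2.92 in CCR2-low. The granule and cell-cycle transcripts given in the opening moved with all of these differences. So did other markers: the basophil, mast cell and eosinophil list summed to 1.41 to 14.3 TPM in the macrophages, with Mcpt8 at 0, against 2347 to 3024 TPM in labelled monocytes. The list for T, B and NK cells summed to 14.9 to 28.4 TPM in the macrophages, against 786 to 979 TPM in labelled monocytes. Ncr1 and Cd8a were at 0 in the labelled monocytes. Of the 4 tested genes of this list 3 were called higher and 1 lower in each macrophage subset, so the sum does not give the direction of most of them. Adipocyte markers summed to 295 to 832 TPM in the macrophages, against 0.917 to 1.97 TPM in labelled monocytes. The erythroid and platelet list summed to 3346 to 6980 TPM in the macrophages, against 123 to 153 TPM in labelled monocytes. The part of these lists in the member values was not tested.

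The libraries of operated mice ask how the fat macrophages differ after cardiac injury. No gene was called in limma, 0 of 9607, with a background of 0%, and 753 genes had an unadjusted p under 0.05, as had 0 of the 36 members tested. Rpia, at 0.172 to 0.225 RPKM in MI and 0.232 to 0.308 RPKM in sham libraries, did not pass the filter of 1 RPKM in at least 3 libraries. The median log2 fold change was -0.11 over members and -0.02 over all genes. Libraries did not overlap for 2 of the 36 members (5.56%), against 14.6% of all genes. In this count 1 was higher, against 5.84% of all genes, and 1 lower, against 8.71%. Idh3a had 16, 17.8 and 18.5 RPKM in MI and 15.9, 15.6 and 15.1 RPKM in sham libraries, and Mdh1 had 46.2, 39.8 and 49.5 RPKM in MI and 51.5, 51.8 and 51.7 RPKM in sham libraries. Neither passed the test, with adjusted p of 0.737 and 0.723. With array weights, which give the libraries unequal weight and whose solver did not converge, 1809 genes were called, among them Fh1, Idh3a and Pgls higher and Ldhb and Mdh1 lower.

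The members differed more among the MI libraries than between the groups. Glycolysis members summed to 1337, 2527 and 3409 RPKM in MI libraries and 2999, 2340 and 2400 RPKM in sham libraries, so the MI libraries held both the lowest and the highest sum. Pentose phosphate members summed to 173, 236 and 261 RPKM in MI and 254, 229 and 229 RPKM in sham libraries. The TCA group was more even, at 511, 569 and 541 RPKM in MI and 539, 569 and 554 RPKM in sham libraries. Glycolysis over TCA was 2.62, 4.44 and 6.3 in MI libraries and 5.57, 4.12 and 4.33 in sham libraries. MI replicate 1 was the lowest of the 6 libraries for 31 of the 37 members, 17 of 19 in glycolysis, 6 of 6 in the pentose phosphate pathway and 8 of 12 in the TCA group, against 36.2% of all genes tested. MI replicate 3 was the highest for 19 of the 37, of which 14 were in glycolysis, against 15.9% of all genes tested.

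**Figure D5:**
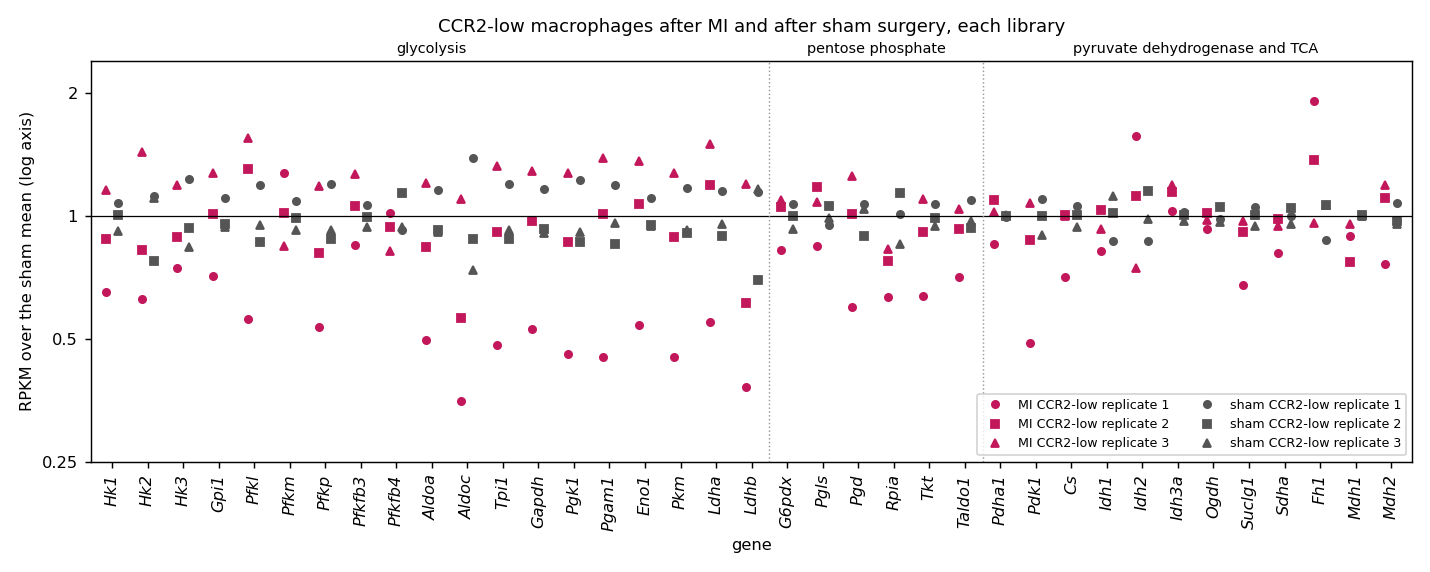
RPKM of each member in the 3 MI and 3 sham libraries, divided by the sham mean, on a log axis. MI replicate 1 (circles) lies lowest for 31 of 37 members, and MI replicate 3 (triangles) highest for 19.

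Pkm had 219, 433 and 618 RPKM in MI and 568, 441 and 450 RPKM in sham libraries, a log2 fold change of -0.31 with a 95% interval from -1.19 to 0.57. Ldha had 211, 458 and 576 RPKM in MI and 443, 343 and 368 RPKM in sham libraries, with a 95% interval of the log2 fold change from -0.88 to 0.87. For both, MI replicate 1 was the lowest and MI replicate 3 the highest of the 6 libraries, and the intervals reach beyond 1.5-fold in one direction or both. Tkt had 20.6, 29.5 and 35.6 RPKM in MI and 34.5, 31.9 and 30.5 RPKM in sham libraries, and Pgam1 had 101, 227 and 310 RPKM in MI and 266, 191 and 215 RPKM in sham libraries, again with MI at both ends. Over the 36 members tested the log2 fold changes ran from -0.49 for Ldhb to 0.43 for Fh1. Pfkm, Idh2 and Fh1 were highest in MI replicate 1. Fh1 had 32.6, 23.4 and 16.4 RPKM in MI and 14.9, 18.1 and 18.1 RPKM in sham libraries (log2 fold change 0.43, interval -0.13 to 1.00, adjusted p = 0.72). Idh2 had 89.9, 64 and 42.7 RPKM in MI and 49.5, 65.9 and 56 RPKM in sham libraries (log2 fold change 0.14, adjusted p = 0.926). Both genes overlapped between the groups, and in both the MI libraries spread over a wider range than sham. Without MI replicate 1 the members' median log2 fold change was 0.07, and without MI replicate 3 it was -0.28, with 0 members called in either case.

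Values of MI replicate 1 outside these pathways moved with its member values. Its 6 macrophage markers summed to 19664 RPKM, against 34786 and 44405 RPKM in the other MI libraries and 37713 to 43579 RPKM in sham libraries. Most of that sum was Lyz2, at 17600 RPKM in MI replicate 1, whereas Csf1r of the same list was highest there, at 828 RPKM, against 608 to 745 RPKM in the other 5 libraries. Its Ccr2 was 8.09 RPKM, against 27.4 and 26.8 RPKM in the other MI libraries and 31.5 to 41.4 RPKM in sham libraries. Its classical monocyte list summed to 98.2 RPKM, against 370 and 400 RPKM in the other MI libraries and 297 to 498 RPKM in sham libraries. Its erythroid and platelet list summed to 1451 RPKM, against 668 and 527 RPKM in the other MI libraries and 341 to 572 RPKM in sham libraries. Its fibroblast list summed to 106 RPKM, against 83.8 and 73.2 RPKM in the other MI libraries and 23.3 to 46.9 RPKM in sham libraries. Adipocyte markers summed to 80.2 to 178 RPKM in MI and 32.2 to 43.3 RPKM in sham libraries, and the granule and precursor list to 99.2 to 162 RPKM in MI and 30.9 to 85.4 RPKM in sham libraries, with Ms4a3 at 0 in both. The cell-cycle list summed to 74.6 to 99.7 RPKM in MI and 107 to 132 RPKM in sham libraries, without overlap. Adgre1 was also lower without overlap, at 489 to 766 RPKM in MI and 858 to 979 RPKM in sham libraries. Xist was at 3.17 to 8.02 RPKM in MI and 5.8 to 6.84 RPKM in sham libraries. Ddx3y was at 0 in every MI and sham library, so these mice were female, unlike those of the steady-state macrophages. The part of these in the member values was not tested. Hexokinase was again mostly Hk3, at 79.4 ± 1.94% in MI and 78.7 ± 2.7% in sham libraries (n = 3 each). Pfkp made up 25.2 to 31.8% of phosphofructokinase in MI and 34.2 to 35.1% in sham libraries, and Pfkl 57.7 to 70.4% in MI and 59.5 to 61% in sham libraries. The Pfkp shares lay apart and the Pfkl shares overlapped. Of the further pathway genes none was called, 0 of 10 in glycolysis, 0 of 9 transporters, 0 of 7 in the pentose phosphate pathway, 0 of 9 for pyruvate dehydrogenase and 0 of 12 in the TCA cycle.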

How the data were processed

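The authors deposited TPM per gene for the 9 steady-state libraries and RPKM per gene for the 6 MI and sham libraries, per the file headers, and a table of their own comparisons with log2 differences and adjusted p-values. Reads were placed on mm10, according to the submitters' processing notes, and no source used here names aligner, counter or annotation. The members and gene lists were chosen with earlier results of these data known.

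Whole reads per gene were worked back from the ratios of a gene's values across libraries, which gave numbers within 0.01 of whole for 28347 of 28347 and 21807 of 21809 genes. The main test, two-sided, was limma (3.58.1, R 4.3.3) with trended eBayes on log2(value + 1). It ran over the 15467 and 9607 genes with a value of at least 1 in 3 libraries or more, Benjamini-Hochberg adjusted over all of them and called below 0.05. Fold changes are on the log2(value + 1) scale, which understates changes of low genes. The 9 steady-state libraries shared 1 fit, the 6 others another, and the tables were tested apart. The fits were tested on simulated data. Alternatives were a pseudocount of 0.1, no filter, median-ratio scaling over genes at 10 or more in every library, robust eBayes, 2-group fits, a replicate block, array weights for MI, leaving out each library, and voom on the whole reads, the last chosen after seeing the data. Members were named throughout; of the other pathway genes up to 4 per list with the smallest p were named. Near-identical copies were GENCODE M21 transcripts of other genes aligned by minimap2 2.31 at 95% identity or more over at least 50% of the copy: 107 copies for 10 members. Motifs were counted in RefSeq sequences of 36 members.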

Additional observations from a re-analysis of the deposited data

How the results depend on the processing

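Between CCR2-high and CCR2-low, 2733 genes were called, 1795 with the replicate block and 1481 to 2424 without 1 library (1481 when CCR2-high replicate 1 was left out, 1800 for CCR2-high replicate 3, and 1580 and 1612 for replicates 1 and 3 of CCR2-low). Members called higher were 2, but 1 with a pseudocount of 0.1, with no filter and with the replicate block, 5 with voom on whole reads, and 1 to 4 without 1 library. Members called lower were 2, but 4 with median-ratio scaling and 1 to 3 without 1 library. Voom called 3005 genes. Against labelled monocytes, members called higher in CCR2-low were 4, but 2 with no filter and 2 to 4 without 1 library. Median-ratio scaling reversed Pfkp in CCR2-high against labelled monocytes (0.06) and Fh1 in CCR2-low against labelled monocytes (0.31). For MI against sham, array weights, whose solver did not converge, called 1809 genes with 3 members higher (Fh1, Idh3a and Pgls) and 2 lower (Ldhb and Mdh1); leaving out 1 library gave 0 to 5 genes, the 5 without MI replicate 3, and 0 members. The cause of these changes was not tested. Same-numbered libraries deviated with correlations from -0.57 to 0.064 by title and from -0.505 to 0.17 by description, and the block called 0 genes for MI. With 3 libraries a group these values cannot show whether the replicate numbers pair the libraries. The remaining counts of calls stayed within 1.5 times in the alternatives run. In MI against sham, 3 libraries a group and the spread of the MI libraries limit what could be detected.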
